A study of Rattus norvegicus with 458 samples.

Results

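The miR-204 and miR-211 family was followed through a body atlas of small RNA sequencing from Sprague Dawley rats. Its members were every miRNA name in the count table in which miR-204 or miR-211, with any arm, was one of the parts of the name, leaving out reads of the precursor. The rule found 5 of the 7534 names, which were miR-204-5p, miR-204-3p, miR-211-5p, miR-211-3p and a composite name for reads that the quantifier gave to both 5p arms. It also found 635 of the 264294 isomiR sequences, where an isomiR is a read sequence that differs from the reference mature miRNA at an end or by a base. All 5 names had at least 1 count, and miR-204-5p held 1590898 of the counts, the composite name 5150, miR-211-5p 3366, miR-204-3p 793 and miR-211-3p 6.

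The rats were naïve animals of 12 to 13 weeks, 5 males (rats 2 to 6) and 5 females (rats 7 to 11), with no treatment or genotype besides the strain, and the same animals stand behind nearly all tissue labels. The 23 labels used were adrenal, biceps femoris, brainstem, cerebellum, cerebrum, dorsal root ganglion, duodenum, glandular and non-glandular stomach, heart, hippocampus, ileum, jejunum, kidney, kidney cortex, kidney medulla, liver, ovary, pancreas, soleus, testis, uterus and whole blood. Testis came from the 5 males, ovary and uterus from the 5 females. The dorsal root ganglion RNA was a pool of 5 males and a pool of 5 females, each sequenced as 5 technical libraries that were summed, so n = 2 there, its spread is that between the pools, and sex cannot be told apart from pool. Per the methods that RNA was provided by Takeda Pharmaceuticals, without saying whether it came from the same rats, and it has no RNA integrity number. Differences of dorsal root ganglion from other labels therefore cannot be told apart from the source of the RNA. After repeat runs were merged, 208 of 215 libraries were used, with 376401 to 17725805 counts each and the 5 testis libraries the shallowest, at up to 653651.

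The 7 libraries left out were duodenum of rats 2, 4, 7 and 11 and hippocampus of rats 2, 6 and 7. Each of them was closer to the median profile of another tissue than to that of its own label. In the left-out duodenum libraries miR-204-5p was at 2171, 2254, 1607 and 212 CPM (the count as parts of 1000000 counts of the library), against 88.2 to 187 in the 6 that were used. In the left-out hippocampus libraries it was at 114, 113 and 438 CPM, against 1796 to 9214 in the 7 that were used. Among the libraries used, adrenal of rat 8, ovary of rat 11 and uterus of rat 8 also stood apart from their labels, with correlations of 0.776, 0.820 and 0.919 with their own tissue's median log2 profile against 0.960, 0.932 and 0.980 with that of duodenum. Differences of adrenal and uterus are given with and without them.

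miRNAs are short RNAs that pair through their seed, bases 2 to 8, with messenger RNAs and lower their translation and stability. miR-204 and miR-211 are paralogs that lie inside introns of genes for TRPM cation channels. miR-204 is known from retinal pigment epithelium, choroid plexus, kidney and pancreas, and miR-211 from melanocytes, where it is made together with the channel gene TRPM1. In both hairpins the 5p arm is the guide strand that is usually kept, and the 3p arm is the passenger strand.

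The mature sequences are shown because a single base separates the 5p arms, and every later result on miR-211-5p depends on it. The RefSeq entries for the rat (build GRCr8), 5′ to 3′ with the seed in capitals, were these.
rno-miR-204-5p: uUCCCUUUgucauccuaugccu
rno-miR-211-5p: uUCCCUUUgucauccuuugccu
rno-miR-204-3p: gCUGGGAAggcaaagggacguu
rno-miR-211-3p: gGCAAGGAcagcaaaggggg

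The 5p arms share the seed UCCCUUU and differ by A17T, counted from 1 at the 5′ end of miR-204-5p, written in DNA letters. The 3p arms share neither the 5p seed nor a seed with each other. The Mir204 hairpin of 110 bases lies at chr1:229743461-229743570 on the plus strand, within the protein-coding gene Trpm3 on the same strand. The Mir211 hairpin of 106 bases lies at chr1:127189328-127189433 on the plus strand, within Trpm1, also on the same strand. The arms lie in the hairpins as follows, with the mature arms in capitals.
Mir204: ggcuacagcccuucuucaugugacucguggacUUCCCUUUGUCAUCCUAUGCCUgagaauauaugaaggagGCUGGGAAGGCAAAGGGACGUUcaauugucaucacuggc
Mir211: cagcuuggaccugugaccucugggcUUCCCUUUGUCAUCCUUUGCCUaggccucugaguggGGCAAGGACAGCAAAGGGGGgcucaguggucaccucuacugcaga

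The reads that carried each name are shown next, because they show where each name ends and the other begins. The base at position 17, any base beyond position 22 and the 3p seed are in capitals, and the letters are those of the sequenced DNA.
miR-204-5p, 814758 counts: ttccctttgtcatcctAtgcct
miR-204-5p, 1 base longer, 575290 counts: ttccctttgtcatcctAtgcctG
composite name, 4913 counts: ttccctttgtcatcctAtgcctA
miR-211-5p, 2426 counts: ttccctttgtcatcctTtgcct
miR-211-5p, 2 bases longer, 132 counts: ttccctttgtcatcctAtgcctAG
miR-204-3p, 422 counts: gCTGGGAAggcaaagggacgt

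The base after the 22nd is G in the miR-204 hairpin and A in the miR-211 hairpin. The composite name was therefore almost wholly 1 sequence, with the A at position 17 of miR-204 and a last A that is the next base of the miR-211 hairpin. Of the 5150 composite counts 4920 had A at position 17, and the composite was added to neither name in the levels below. No other name outside the family with the same 5p seed passed 155 counts in the libraries used, and the higher of the 2 such names reached 1.62 CPM at most, in liver.

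miR-204-5p was counted in all 208 libraries and its mean level ranged from 12188 CPM in cerebellum to 1.29 CPM in whole blood. The nervous system held 5 of the 6 highest labels, with testis between them. In cerebellum the mean was 12188 ± 4292 CPM (SD, n = 10), with a lowest, median and highest library of 6840, 10522 and 18475. In brainstem it was 10152 ± 6615 CPM (SD, n = 10), with 4922, 6577 and 25458. The 2 dorsal root ganglion pools were at 10661 CPM for males and 7930 CPM for females. These 3 labels overlapped in their libraries, and each of their libraries was above every cerebrum library.

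Hippocampus stood at 3386 ± 2699 CPM (SD, n = 7), with 1796, 2173 and 9214 as the lowest, median and highest library. The 5 testis libraries were at 3274, 3379, 3181, 2698 and 2982 CPM. Cerebrum stood at 1927 ± 269 CPM (SD, n = 10), with 1523, 1906 and 2492. Outside these labels no used library exceeded 589.7 CPM. Glandular stomach at 428 ± 87.0 CPM, kidney cortex at 393 ± 87.2, kidney at 351 ± 107 and adrenal at 269.7 ± 80.1 (SD, n = 10 each, and 288 ± 59.5 in adrenal without rat 8) followed, and the 5 ovary libraries were at 478, 545, 349, 461 and 115 CPM, the last of them rat 11. Skeletal muscle, small intestine, non-glandular stomach, pancreas, uterus and liver lay between 144 ± 31.0 CPM in soleus and 48.9 ± 11.4 in jejunum. Pancreas, for which the miR-204 locus is known from beta cells, was at 110.2 ± 24.2 CPM (SD, n = 10), and its libraries carried 8114 to 15689 CPM of the acinar list miR-216a-5p, miR-216b-5p and miR-217-5p. Heart was at 40.3 ± 10.3 CPM and whole blood at 1.29 ± 0.745 CPM (SD, n = 10 each), the latter from 89 counts in all.

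**Figure D1:**
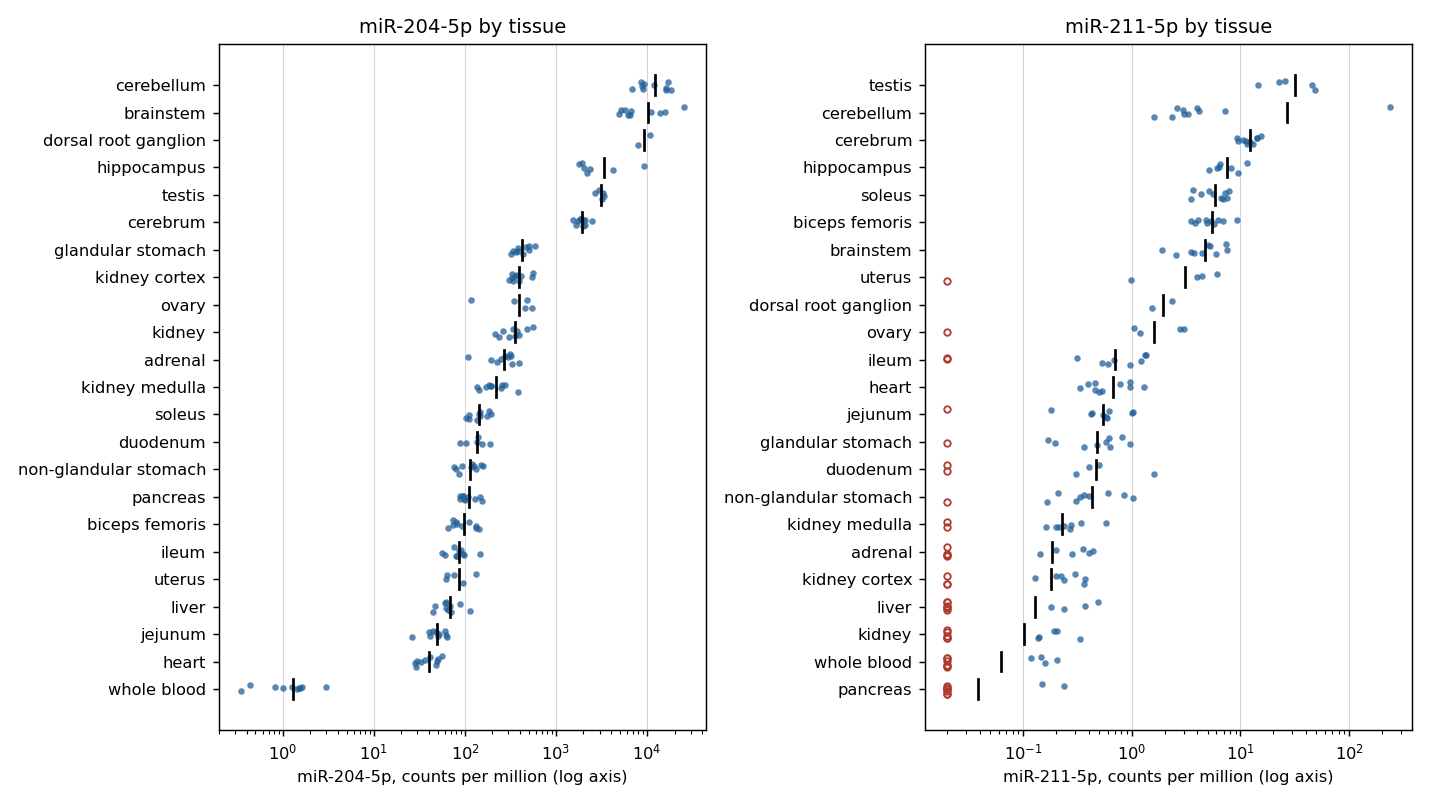
Level of miR-204-5p and miR-211-5p in every library, in CPM on a log axis, with tissues in rows ordered in each panel by their mean. Each point is a library (for dorsal root ganglion a pool), a black bar is the mean, and a red open circle at the left edge is a library with 0 counts. Cerebellum, brainstem and dorsal root ganglion lead for miR-204-5p, whereas miR-211-5p is highest in testis and in 1 cerebellum library at 239 CPM.

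In edgeR's quasi-likelihood fit over the 1593 names that passed the filter on low counts, each label was compared with the mean of all other labels, with the upper quartile of each library as its scale. Folds below are log2 differences on that scale ± standard error, which is not the scale of the CPM levels. miR-204-5p was higher in 9 labels and lower in 10. Beside each label stands the share of all names tested that was called in the same direction there. The largest differences were 4.44 ± 0.14 in cerebellum (adjusted p = 2.3e-74, 24.4% of names higher), 3.92 ± 0.24 in dorsal root ganglion (adjusted p = 4.8e-35, 16.0%) and 3.35 ± 0.14 in brainstem (adjusted p = 7.2e-58, 23.2%). The next were 1.83 ± 0.18 in hippocampus (22.5% of names higher), 1.68 ± 0.22 in testis (20.8%), 1.47 ± 0.16 in glandular stomach (20.9%) and 1.09 ± 0.17 in cerebrum (24.9%).

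At the other end, miR-204-5p was lower in whole blood by −5.12 ± 0.30 (edgeR adjusted p = 4.5e-39, 16.6% of names lower) and in heart by −2.59 ± 0.24 (adjusted p = 3.1e-20, 8.54%). It was also lower in liver (−1.96, 9.86% of names lower), jejunum (−1.95, 14.1%), biceps femoris (−1.74, 14.4%), pancreas (−1.42, 14.2%), soleus (−1.15, 12.1%), duodenum (−1.01, 9.67%) and ileum (−0.98, 12.5%). The digestive tract was therefore split, with glandular stomach above the mean of the other labels and all 3 parts of the small intestine below it. With all libraries kept, duodenum was 0.08 (adjusted p = 0.94), since the 4 libraries left out there were high in miR-204-5p.

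Kidney is among the tissues for which miR-204 is known, and its call depended on the scale. Against the rest, miR-204-5p was 0.70 ± 0.17 in kidney (edgeR adjusted p = 0.00043, 26.6% of names higher) and 0.48 ± 0.18 in kidney cortex (adjusted p = 0.028, 24.0%). With TMM scaling the values were 0.39 (adjusted p = 0.064) and 0.26 (adjusted p = 0.30), and with DESeq2 −0.068 and −0.087. Among the other labels, miR-204-5p in adrenal was −0.50 (adjusted p = 0.035, 13.2% of names lower), but −0.08 with TMM scaling (adjusted p = 0.92), −0.25 with the rat as a block (adjusted p = 0.28) and −0.43 without the 3 libraries that stood apart (adjusted p = 0.093). Uterus was −0.72 (adjusted p = 0.057), and −0.87 without those 3 libraries (adjusted p = 0.035). Non-glandular stomach was 0.34 (adjusted p = 0.13), 0.62 with the rat as a block (adjusted p = 0.0005) and −1.47 with library totals as the scale (adjusted p = 3.3e-13).

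Of the 22 pairs of neighbours in the order of mean CPM, 10 differed in miR-204-5p in the same fit, on the upper quartile scale. Cerebellum exceeded brainstem, and dorsal root ganglion exceeded hippocampus by 2.00 ± 0.42 (edgeR adjusted p = 4.4e-05, 25.9% of names called in either direction). The difference did not pass between brainstem and dorsal root ganglion (−0.55 ± 0.43, adjusted p = 0.39), hippocampus and testis (0.14 ± 0.34, adjusted p = 0.78), or testis and cerebrum (0.57 ± 0.31, adjusted p = 0.11). Cerebrum and glandular stomach, whose CPM ranges did not overlap, did not pass either (−0.37 ± 0.26, adjusted p = 0.22), and the sign of miR-204-5p there was opposite to that of the CPM levels.

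Further down the order miR-204-5p was higher in glandular stomach than in kidney cortex (0.95, 30.8% of names called), in kidney than in adrenal (1.15, 38.9%, and 1.08 without the 3 libraries that stood apart), in kidney medulla than in soleus (1.07, 36.8%), in non-glandular stomach than in pancreas (1.69, 29.1%), in uterus than in liver (1.19, 31.3%, and 1.04 without those 3) and in heart than in whole blood (2.42, 40.4%). The other 2 calls ran against the CPM order, with duodenum below non-glandular stomach (−1.30, 21.7% of names called) and biceps femoris below ileum (−0.73, 41.0%). For miR-204-5p, jejunum minus heart missed the threshold (0.61, edgeR adjusted p = 0.050) and passed without the 3 libraries that stood apart (0.63, adjusted p = 0.036). The order of the middle labels therefore depends on the scale, while that of the leading labels against the lowest does not.

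The kidney was sampled as whole kidney, cortex and medulla from the same 10 rats, which allows the parts to be ranked. miR-204-5p was at 308, 365 and 553 CPM in the lowest, median and highest cortex library, at 211.4, 348 and 554 in whole kidney and at 134, 194 and 384 in medulla. The mean of the medulla, 218 ± 74.8 CPM (SD, n = 10), was the lowest of the 3, and its libraries overlapped with both others. Within rats, cortex was above medulla in 10 of 10 and whole kidney above medulla in 9 of 10, while cortex was above whole kidney in 5 of 10. On the upper quartile scale cortex minus medulla was 0.49 ± 0.26 (edgeR adjusted p = 0.29), medulla minus kidney −0.70 ± 0.26 (adjusted p = 0.12) and cortex minus kidney −0.21 ± 0.26 (adjusted p = 0.97). Of all names, 8.04%, 3.14% and 0.314% were called in these pairs in either direction. The first difference passed with library totals as the scale (0.85, adjusted p = 0.002) and in DESeq2 (0.64, adjusted p = 0.010). The difference of miR-204-5p between medulla and kidney passed with the rat as a block, a fit that leaves out dorsal root ganglion (−0.73, adjusted p = 0.034), and equally without the block once dorsal root ganglion was left out (−0.73, adjusted p = 0.033).

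miR-211-5p was near its floor in all 3 kidney labels, with 10 counts over the 10 cortex libraries, 15 in medulla and 6 in whole kidney. Its mean level there was 0.101 to 0.228 CPM, and 0 of the 3 pairs was called in edgeR. miR-204-3p had 11, 7 and 6 counts in the same libraries, and 0 of its 3 pairs was called. These counts are too low to rank the parts of the kidney by either arm. Of 9 miRNAs of renal epithelium on a marker list, such as miR-10a-5p, miR-192-5p and miR-200b-3p, 0 were higher and 2 were lower in cortex than in medulla, with a median of −0.50 against −0.04 over all names, and the list summed to 484360 to 717635 CPM in the 3 labels. Of 7 neuronal miRNAs 3 were lower in cortex than in medulla, a pair in which 8.04% of all names were called in either direction.

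The brain regions were taken from the same rats. By miR-204-5p they ranked cerebellum, brainstem, hippocampus and cerebrum. Cerebellum exceeded cerebrum by 3.21 ± 0.28 on the upper quartile log2 scale (edgeR adjusted p = 4.2e-21, where 26.5% of names were called in either direction) and hippocampus by 2.50 ± 0.31 (adjusted p = 7.0e-12, 20.8%). Brainstem exceeded cerebrum by 2.16 ± 0.27 (adjusted p = 7.7e-12, 14.0%) and hippocampus by 1.45 ± 0.30 (adjusted p = 7.0e-05, 13.2%). Cerebellum exceeded brainstem by 1.05 ± 0.26 (adjusted p = 0.00071, 28.1%), but this call of miR-204-5p was lost with TMM scaling (0.50, adjusted p = 0.10) and with library totals (0.26, adjusted p = 0.38). Hippocampus minus cerebrum was 0.71 ± 0.28 (adjusted p = 0.18, 3.70%), and passed with library totals (0.81, adjusted p = 0.023) and in DESeq2 (0.85, adjusted p = 0.0030).

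Because miR-204 is known from the choroid plexus, the secretory epithelium of the brain ventricles, 11 miRNAs of choroid plexus and ciliated epithelium were set beside it. The list held miR-448-3p, miR-764-3p, miR-764-5p, miR-1264-3p, miR-1298 and miR-1912-3p, which lie within one gene for a serotonin receptor, and miR-449a-5p, miR-449c-5p and the miR-34b and miR-34c arms, which are known from ciliated cells. It was counted in each brain library as a sum in CPM. The cerebellum libraries fell into separate clusters. In rats 2, 3, 6, 8 and 10 the list summed to 3476, 3236, 2762, 1361 and 2738 CPM, with miR-204-5p at 18475, 16238, 16201, 11780 and 16793 CPM. In rats 4, 5, 7, 9 and 11 it summed to 237, 430, 392, 235 and 425 CPM, with miR-204-5p at 8621, 9265, 8740, 8928 and 6840 CPM. Every cerebellum library of the first cluster was above every one of the second for miR-204-5p, and the second cluster was still above every cerebrum library.

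In brainstem the list ran from 1546 to 9388 CPM over the 10 libraries and moved with miR-204-5p (Pearson r = 0.951, permutation p = 0.00018, adjusted over 4 relations 0.00072, and Spearman rho = 0.867, permutation p = 0.0023, adjusted 0.0046). Without the 2 libraries farthest from the median of the list, r was 0.871. The highest brainstem library for miR-204-5p, rat 7 at 25458 CPM, was also the highest for the list. In cerebrum no such relation passed (r = −0.305, permutation p = 0.40, rho = −0.20, permutation p = 0.59, n = 10), and r was 0.461 without the 2 farthest libraries. The list summed to 571 to 1280 CPM there, of which miR-34c-5p was 388 to 1051 CPM and miR-448-3p 20.3 to 35.7 CPM. The sum in cerebrum is therefore mostly a measure of miR-34c-5p. The same holds for the low cerebellum cluster, where miR-34c-5p was at 208, 372, 340, 203 and 370 CPM in rats 4, 5, 7, 9 and 11. In the high cluster it was at 1670, 1553, 1243, 705 and 1234 CPM in rats 2, 3, 6, 8 and 10. In brainstem miR-34c-5p ran from 1029 to 4516 CPM and miR-448-3p from 69.2 to 663 CPM, so miR-34c-5p was a large part of that sum too. In hippocampus rat 8 stood alone on both measures, with miR-204-5p at 9214 CPM, so no r over the 7 libraries is given. The part of choroid plexus content in the levels of miR-204-5p was not tested, and in bulk tissue fewer cells of a type and less RNA per cell cannot be told apart. In dorsal root ganglion the list summed to only 156 to 209 CPM, of which miR-448-3p was 2.41 to 4.10 CPM, while miR-204-5p was at 7930 and 10661 CPM. Testis carried 245940 to 361904 CPM of the list, most of it miR-34c-5p, which is abundant in male germ cells.

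**Figure D2:**
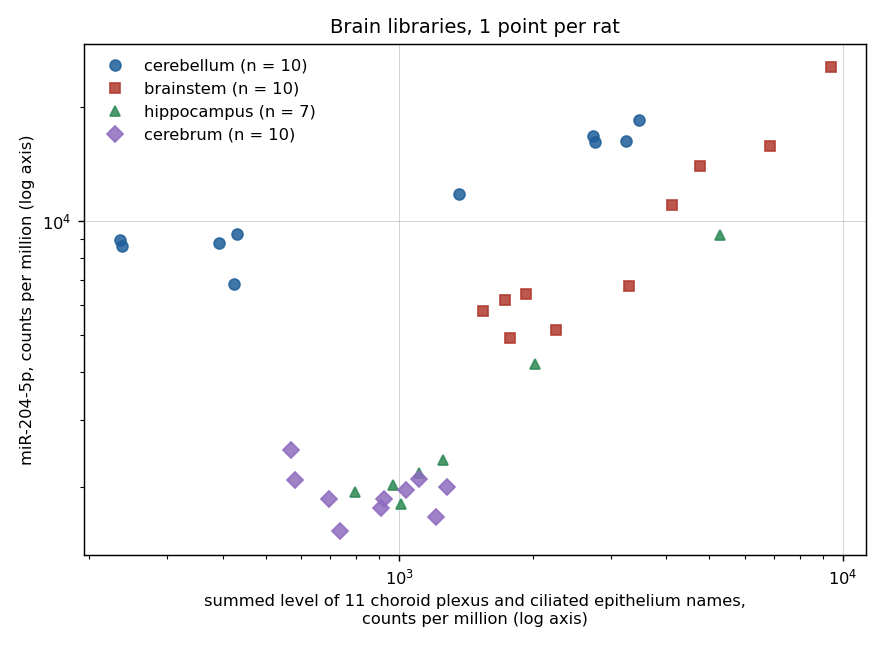
Level of miR-204-5p against the summed level of 11 miRNAs of choroid plexus and ciliated epithelium in each library of 4 brain regions, 1 point per rat, both in CPM on log axes. The cerebellum libraries form a low and a high cluster on both axes, and the brainstem libraries rise together on both up to rat 7 at 25458 CPM.

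Between regions, 9 of the 11 miRNAs of that list were higher in brainstem than in cerebrum and 0 lower, with a median of 1.56 against −0.01 over all names. In cerebellum against cerebrum 4 were higher and 1 was lower (median 0.74 against 0.00), in hippocampus against cerebrum 4 were higher and 0 lower (median 1.23 against 0.00), and in cerebellum against brainstem 1 was higher and 3 were lower. Against hippocampus, where miR-204-5p was higher in both regions, the list had 0 higher and 2 lower in brainstem (median 0.86 against 0.00) and 0 higher and 2 lower in cerebellum (median −0.05 against 0.04). Of all names, 14.0% were called in either direction in brainstem against cerebrum, 26.5% in cerebellum against cerebrum and 3.70% in hippocampus against cerebrum. The share was 28.1% in cerebellum against brainstem, and 13.2% in brainstem and 20.8% in cerebellum against hippocampus. In these last 3 pairs the list was called near the share of all names, which is no result about the list. Of 3 oligodendrocyte miRNAs, miR-219a-2-3p, miR-219a-5p and miR-338-3p, 2 were higher in brainstem than in cerebrum and all 3 were lower in cerebellum than in brainstem. Of 7 neuronal miRNAs, such as miR-124-3p and miR-137-3p, 1 was higher and 5 were lower in cerebellum than in cerebrum. The neuronal list summed to 52897 to 64502 CPM in cerebellum and 73259 to 120146 CPM in cerebrum, so both labels held their defining neuronal miRNAs. Of 5 blood miRNAs 0 passed in cerebellum against cerebrum, of 4 endocrine miRNAs 0 were higher and 2 lower, of 3 muscle miRNAs 1 was higher and 0 lower, and of 3 acinar miRNAs 1 was higher and 0 lower. Other lists had members that were higher where miR-204-5p was higher. Of the 9 miRNAs of renal epithelium 5 were higher in cerebellum than in cerebrum (median 1.15) and 5 higher than in hippocampus (median 1.39). Of the 5 blood miRNAs 4 were higher in cerebellum and 4 in brainstem than in hippocampus, and of the 3 acinar miRNAs 2 were higher in brainstem than in cerebrum and 2 than in hippocampus. The part of these lists in the differences of miR-204-5p was not tested.

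miR-211-5p followed another order, at levels far below those of miR-204-5p. It was counted in 165 of the 208 libraries. The 5 testis libraries were at 22.6, 45.2, 49.0, 14.4 and 25.8 CPM, from 78 counts in all. Cerebrum was at 12.1 ± 2.10 CPM (SD, n = 10), with 9.24, 11.8 and 15.5 as the lowest, median and highest library, and hippocampus was at 7.59 ± 2.20 CPM (SD, n = 7), with 5.14, 6.47 and 11.4. The skeletal muscles came next, soleus at 5.84 ± 1.62 CPM and biceps femoris at 5.44 ± 1.69 CPM (SD, n = 10 each), with 213284 to 327956 CPM of muscle miRNAs in those libraries. Brainstem was at 4.72 ± 1.88 CPM (SD, n = 10), and the 5 uterus libraries were at 0.989, 0, 4.42, 3.96 and 6.13 CPM. The 2 dorsal root ganglion pools were at 1.54 and 2.33 CPM. All other labels had means of at most 1.61 CPM, and pancreas had 2 counts in 10 libraries.

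Cerebellum had a mean of 27.0 ± 74.4 CPM (SD, n = 10) for miR-211-5p, which rested on a single library. Rat 10 was at 239 CPM, and the other 9 libraries were between 1.60 and 7.25 CPM with a mean of 3.47 ± 1.62 (SD, n = 9). The library had been sequenced on more than 1 flow cell, and miR-211-5p was at 243 CPM (336 counts) and 237 CPM (815 counts) in its runs. Its reads had the miR-211 sequence, with 850 of 1151 counts (73.8%) in the 22-base form with T at position 17. Among the 383 names with at least 50 counts in this library, 4 were over 4-fold above the highest of the other 9 cerebellum libraries, by a rule chosen after the values were seen. These were miR-211-5p and the 3 members of the sensory cluster, miR-182 at 6521 CPM (others 119 to 415), miR-183-5p at 1066 CPM (others 14.1 to 46.1) and miR-96-5p at 61.2 CPM (others 0.338 to 2.72). Dorsal root ganglion, where miR-182 was at 63300 to 66730 CPM, held miR-211-5p at 1.54 to 2.33 CPM. Brainstem, where miR-182 had a median of 5279 CPM (98.0 to 5850), held miR-211-5p at 1.88 to 7.57 CPM. The source of these 4 miRNAs in this library was not tested.

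In the fit against the rest on the upper quartile scale, miR-211-5p was higher in 7 labels and lower in 6, beside the shares of names given above. It was higher in testis by 3.30 ± 0.39 (edgeR adjusted p = 7.7e-14), in uterus by 3.04 ± 0.40 (17.8% of names higher, and 3.33 without the 3 libraries that stood apart), in soleus by 2.56 ± 0.29 (22.0%), in biceps femoris by 2.46 ± 0.29 (20.5%), in cerebrum by 2.01 ± 0.29 and in hippocampus by 1.16 ± 0.36 (adjusted p = 0.0046). The seventh, cerebellum at 3.81 ± 0.26, included the library of rat 10, and without it miR-211-5p was 0.79 ± 0.29 there (edgeR adjusted p = 0.017). In the remaining cerebellum libraries 139 counts carried that name. Reads of the 5p arms with the miR-211 base numbered 106 there, against 41.6 at the rate of misread miR-204-5p given below. The part of misread reads in this call was not tested. miR-211-5p was lower in whole kidney (−2.86, 6.47% of names lower), kidney cortex (−2.29, 6.21%), kidney medulla (−1.63, 6.65%), liver (−2.63), adrenal (−2.79, and −2.93 without the 3 libraries) and pancreas (−3.88 ± 0.69). These 6 labels held 2 to 15 counts each, so the size of the difference rests on few reads.

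Of the 22 neighbouring pairs by mean CPM, 6 differed in miR-211-5p. It was higher in cerebellum than in cerebrum (1.72, 26.5% of names called), a call that was reversed without the cerebellum library of rat 10. miR-211-5p was also higher in biceps femoris than in brainstem (2.04, 54.9% of names called), in uterus than in dorsal root ganglion (3.19, 20.5%, and 3.48 without the 3 libraries that stood apart) and in non-glandular stomach than in kidney medulla (2.03, 34.0%). On the fitted scale, and against the CPM order, it was lower in hippocampus than in soleus (−1.34, 49.5% of names called) and in brainstem than in uterus (−2.59, 46.0%, and −2.88 without those 3). Testis minus cerebellum at the top was −0.48 (edgeR adjusted p = 0.55), and 2.54 (adjusted p = 5.5e-06) for miR-211-5p without the cerebellum library of rat 10, while duodenum minus non-glandular stomach was −1.83 (adjusted p = 0.087) with that library and −1.82 (adjusted p = 0.030) without it. The difference was 0.09 for soleus minus biceps femoris (edgeR adjusted p = 1).

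Between brain regions, all calls of miR-211-5p that involved cerebellum changed without that library. With it, cerebellum exceeded brainstem by 3.32 ± 0.53 (edgeR adjusted p = 4.0e-08), hippocampus by 2.53 ± 0.58 (adjusted p = 0.00025) and cerebrum by 1.72 ± 0.49 (adjusted p = 0.0040, and 1.07 with adjusted p = 0.12 with the rat as a block). Without it, the differences were 0.30 (adjusted p = 0.68), −0.48 (adjusted p = 0.54) and −1.30 (adjusted p = 0.015), so that cerebellum was then below cerebrum. Brainstem was below cerebrum by −1.60 ± 0.49 (adjusted p = 0.015), while brainstem minus hippocampus was −0.79 ± 0.53 (adjusted p = 0.38) and hippocampus minus cerebrum −0.81 ± 0.54 (adjusted p = 0.59). miR-204-5p ran the other way, with brainstem above cerebrum.

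Since 1 base separates the names, it was asked how many reads with T at position 17 could be misread miR-204-5p. The reads of 23 bases that end in the next base of the miR-204 hairpin gave a measure, because that base is not the next base of the miR-211 hairpin. Among them 575290 had A, 16 had C, 115 had G and 49 had T at position 17, a rate of 8.52 T per 100000 reads (95% exact binomial interval 6.30 to 11.3, counting error only). The rate pools all tissues, which were uneven. There were 7 T beside 32776 A in cerebrum, and 1 T beside 37503 A in dorsal root ganglion. At that rate the family's reads in cerebellum would hold 48.5 T reads, and 1252 were counted. Without the library of rat 10 cerebellum had 106 against 41.6, so most of the margin came from that library. In cerebrum 586 were counted against 8.04 at the rate, in hippocampus 246 against 10.6 and in brainstem 207 against 40.3. In muscle and testis 296 were counted against 0.618 in soleus, 268 against 0.422 in biceps femoris and 78 against 0.642 in testis.

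The margin was thin where miR-204-5p was abundant and miR-211-5p was not. In dorsal root ganglion 22 T reads were counted against 15.3 at the rate, whose upper bound gives 20.2. In kidney cortex and in whole kidney 6 were counted in each, against 1.66 and 1.69. Part of the reads under the name miR-211-5p also had the A of miR-204 at position 17, namely 136 of 3366 (4.04%) over all libraries, 16 of 37 in dorsal root ganglion and 5 of 10 in kidney cortex. Most of these were the 24-base read shown above, in which the A at position 17 of miR-204 precedes the last bases AG of the miR-211 hairpin. The level of miR-211-5p in dorsal root ganglion and kidney cortex therefore holds few reads of miR-211 above that rate.

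**Figure D3:**
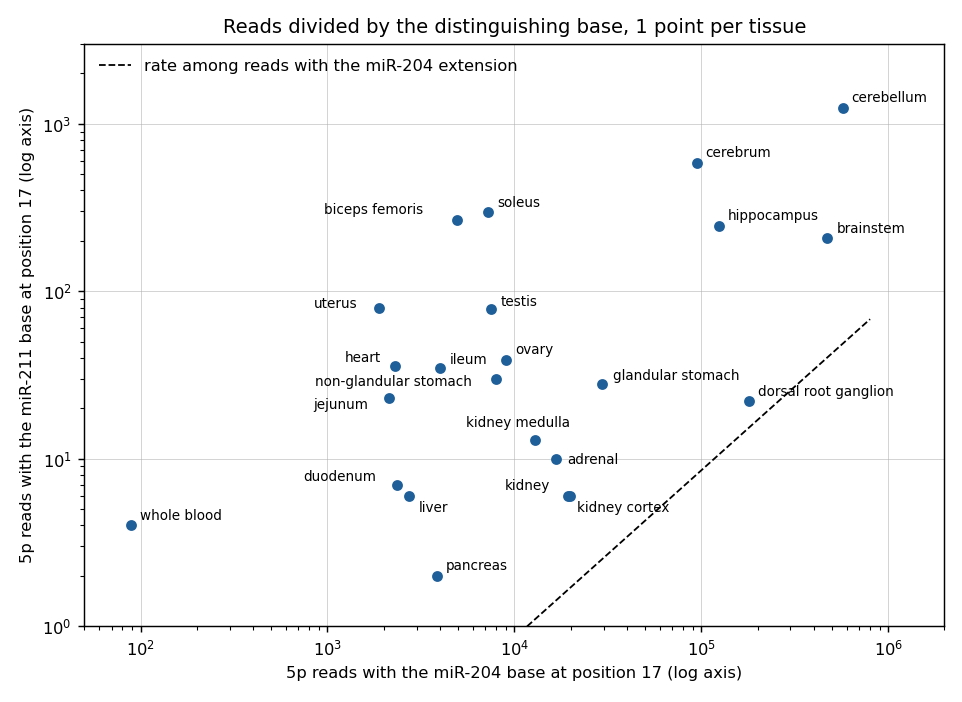
Reads of the 5p arms with T at position 17 against those with A at position 17 in each tissue, as counts on log axes, with the dashed line at the rate of T among reads that end in the next base of the miR-204 hairpin (8.52 per 100000). Dorsal root ganglion lies nearest to the line, with 22 reads against 15.3, and soleus, biceps femoris, testis and cerebrum lie far above it, as does cerebellum through the library of rat 10 (106 reads against 41.6 without it).

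The balance of the paralogs was measured in each library as log2 of miR-211-5p over miR-204-5p counts, with 0.5 added to each. In pooled counts there were 54.2 miR-211-5p reads per 1000 of miR-204-5p in biceps femoris, 42.7 in uterus, 40.9 in soleus and 15.2 in heart. Testis had 10.4, cerebrum 6.26, cerebellum 2.27, hippocampus 2.04, kidney medulla 1.16, kidney cortex 0.515, brainstem 0.466, kidney 0.304 and dorsal root ganglion 0.207. Without the library of rat 10 cerebellum had 0.285, below brainstem, and without the library of rat 8 uterus had 51.7. Whole blood had 4 against 89 counts. Soleus and biceps femoris were thus low in miR-204-5p and moderate in miR-211-5p, and the ratio ran from muscle to dorsal root ganglion over more than 2 orders of magnitude.

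**Figure D4:**
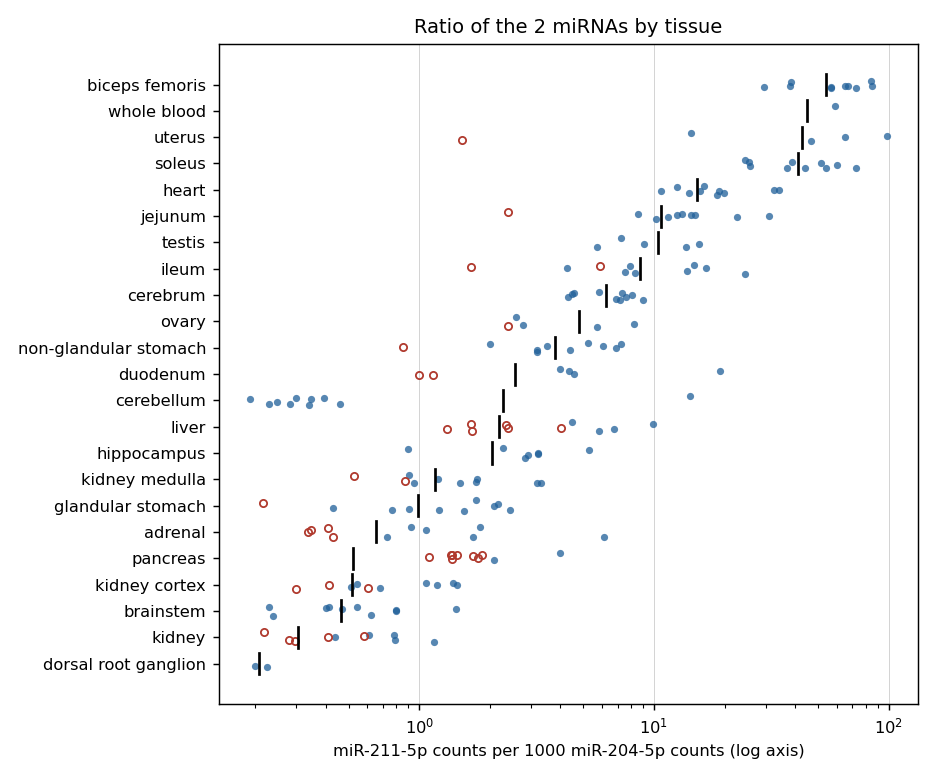
Counts of miR-211-5p per 1000 counts of miR-204-5p, with 0.5 added to each, on a log axis in every library with at least 20 counts of both together, by tissue. Each point is a library (for dorsal root ganglion a pool), a red open circle is a library with 0 counts of miR-211-5p, and a black bar is the ratio of pooled counts without the added 0.5, which runs from 54.2 per 1000 in biceps femoris to 0.207 per 1000 in dorsal root ganglion.

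For 6 pairs of labels the ratio of miR-211-5p to miR-204-5p was compared by 2-sided permutation tests over libraries, with p adjusted over the 6 pairs. The mean ratio was −11.15 ± 1.80 in cerebellum and −7.31 ± 0.38 in cerebrum (SD, n = 10 each), a difference of −3.84 (permutation test, adjusted p = 0.00060). Cerebellum minus hippocampus was −2.59 (exact permutation test, adjusted p = 0.012), and −2.19 when rats were paired as a block (exact sign flips, adjusted p = 0.070). Cerebellum minus brainstem was −0.22 (permutation test, adjusted p = 0.81) and cerebellum minus kidney cortex −0.71 (adjusted p = 0.35). Without the cerebellum library of rat 10 these became −0.78 (adjusted p = 0.019) and −1.26 (adjusted p = 0.00078), and cerebellum minus cerebrum −4.40. The remaining cerebellum libraries held 106 reads with the miR-211 base against 41.6 at the misreading rate, and brainstem 207 against 40.3. The part of misread reads in these ratios was not tested. Kidney cortex minus medulla was −0.93 (permutation test, adjusted p = 0.029), but −0.85 (adjusted p = 0.14) with the most counted isomiR of each name alone. It lost its call without rat 4, 6 or 11 (−0.86, −0.91 and −0.65). Cortex held 10 and medulla 15 counts of miR-211-5p, with 0 counts in 3 cortex and 2 medulla libraries. Of the 10 cortex counts, 5 had the base of miR-204. The ratio in kidney cortex, also in its difference from cerebellum, therefore rests on few reads and on the added 0.5. Kidney cortex minus pancreas was −1.24 (permutation test, adjusted p = 0.0016), although the pooled ratios were 0.515 and 0.523 per 1000. Pancreas had 0 counts of miR-211-5p in 8 of 10 libraries, so this difference follows from the added 0.5 and the lower miR-204-5p counts there.

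The passenger arm miR-204-3p was counted in 92 libraries. It stood at 5.52 ± 1.85 CPM in cerebellum (256 counts), 5.22 ± 2.26 CPM in brainstem (242 counts; SD, n = 10 each) and 4.23 and 6.10 CPM in the dorsal root ganglion pools. Hippocampus was at 1.58 ± 0.932 CPM (SD, n = 7) and cerebrum at 1.44 ± 0.760 CPM (SD, n = 10), while testis had 4 counts in 5 libraries. The 3 labels that led for the 5p arm also led for the 3p arm, with 0 of 22 neighbouring pairs called. Every other label had a mean of at most 0.260 CPM, and heart and jejunum had 0 counts, which allows at most 0.0536 and 0.0680 CPM. Against the rest 6 labels were higher and 0 lower in edgeR and 6 higher and 4 lower in DESeq2, with no folds given because the labels at 0 counts enter the mean of the rest.

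Between brain regions on the upper quartile scale, miR-204-3p in cerebellum exceeded cerebrum by 2.45 ± 0.52 (edgeR adjusted p = 6.2e-05) and hippocampus by 2.43 ± 0.59 (adjusted p = 0.00065), and brainstem exceeded cerebrum by 1.57 ± 0.51 (adjusted p = 0.021). The last call of miR-204-3p was lost without the filter on low counts (1.57, adjusted p = 0.099). Brainstem minus hippocampus was 1.55 ± 0.57 (adjusted p = 0.054, and 1.76 with adjusted p = 0.021 with the rat as a block). Cerebellum minus brainstem was 0.88 ± 0.49 (adjusted p = 0.19) and hippocampus minus cerebrum 0.02 ± 0.54 (adjusted p = 1). Per 1000 miR-204-5p counts there were 0.451 of miR-204-3p in cerebellum, 0.513 in brainstem, 0.554 in dorsal root ganglion and 0.744 in cerebrum. In the same 6 pairs of labels as above, 0 differences in the log2 ratio of 3p to 5p passed, with values from −1.19 to −0.14 and adjusted permutation p from 0.064 to 0.76. miR-211-3p had 3 counts in cerebrum and 1 each in cerebellum, hippocampus and ovary.

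miR-204-5p was read mostly in a few forms. The 22-base form made up 51.2% of its counts over all libraries and forms lengthened at the 3′ end with hairpin bases 36.8%. Forms shortened at the 3′ end were 2.83%, forms whose last base was not that of the hairpin 5.19%, forms with 1 substitution within bases 1 to 19 were 1.84%, forms with another start and hairpin bases alone 0.137%, and all remaining forms 1.98%. Whatever their bases, forms that began elsewhere than the reference were 1.57% of counts, nearly all of them 1 base earlier (1.52%), and the most counted of these carried a first base that was not that of the hairpin. Their share of the reads summed over a label differed widely, at 9.01% in testis, 7.66% in duodenum, 4.97% in cerebrum and 2.23% in brainstem, but 0.0706% in cerebellum and 0.0780% in hippocampus. The spread of this share between rats was not measured, so a single library may carry the value of a label. The share of the 22-base form per library was highest in dorsal root ganglion (64.3 and 68.7%) and pancreas (63.3 ± 11.4%, SD, n = 10). The RNA integrity number was 4.9 to 6.8 in pancreas, the lowest of the labels that give one, against 6.3 to 8.1 in kidney cortex, and its part in the share was not tested. It was 50.3 ± 2.86% in cerebellum, 48.3 ± 9.78% in cerebrum, 49.2 ± 7.71% in kidney cortex and 42.3 ± 6.83% in kidney medulla (SD, n = 10 each), and lowest in ileum at 38.0 ± 8.96% (SD, n = 9 libraries of at least 100 counts). In pancreas the forms longer by hairpin bases were 19.7% of pooled counts and in dorsal root ganglion 21.4%, against 37.2% in kidney cortex.

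**Figure D5:**
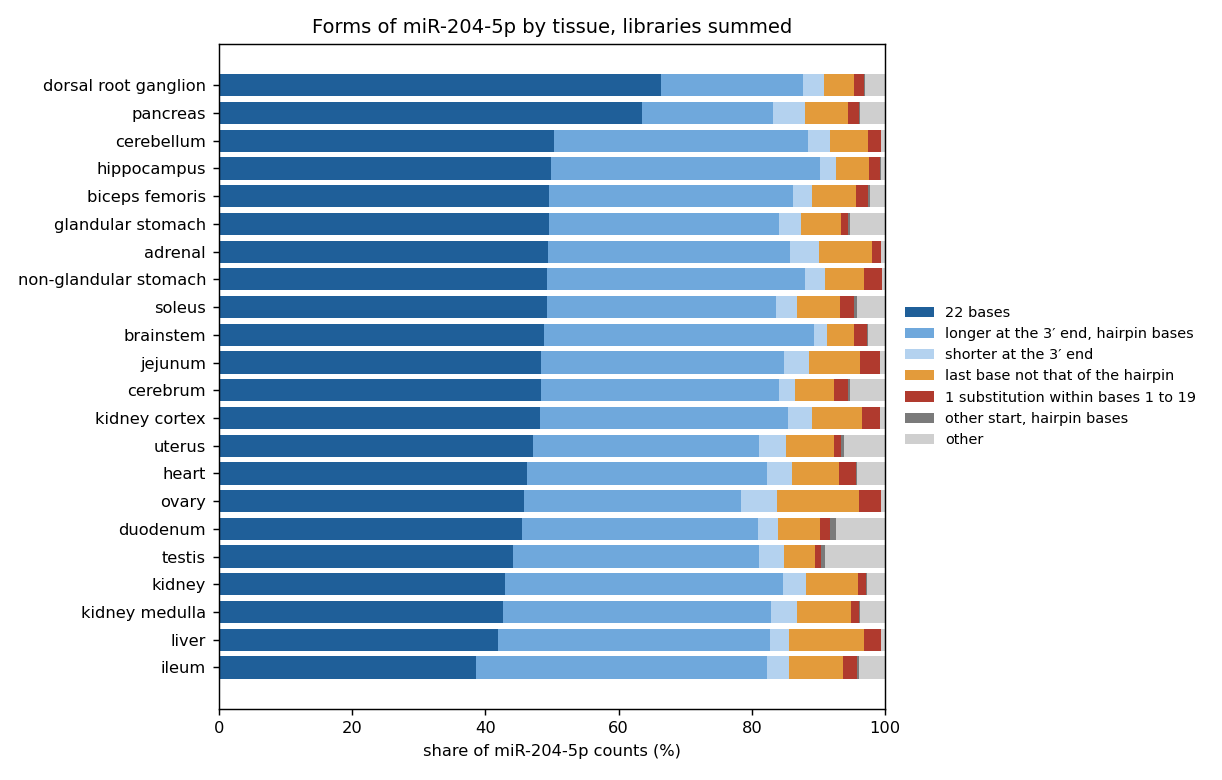
Share of miR-204-5p counts in each class of isomiR, in percent of pooled counts, by tissue, with whole blood left out for its 89 counts. The 22-base form and the forms longer at the 3′ end make up most of every bar, and the share of the 22-base form is longest in dorsal root ganglion and pancreas, where longer forms are 21.4 and 19.7%.

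Across the 6 pairs of labels, the share of the 22-base form differed between kidney cortex and pancreas by −14.1 percentage points (permutation test, adjusted p = 0.033). That call was lost without rat 2, 3, 6, 7, 8, 9 or 11, where the difference was −12.9 to −14.2 points (adjusted p = 0.071 to 0.10). Kidney cortex minus medulla was 6.92 points (permutation test, adjusted p = 0.14), and cerebellum minus cerebrum was 1.96 (adjusted p = 0.82), minus brainstem 0.74, minus hippocampus −2.66 and minus kidney cortex 1.07 points.

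Males and females were compared within the 19 labels that had both and replicates. For miR-204-5p 0 of 19 comparisons passed in edgeR and 0 in DESeq2, and at an unadjusted p under 0.05 there was 1 in edgeR (ileum, female minus male −0.95) and 0 in DESeq2. For miR-204-3p the counts were 0 of 19 at both levels with both tools. For miR-211-5p 1 passed in edgeR and 1 in DESeq2, cerebellum at 3.70 ± 0.72 (edgeR adjusted p = 0.00030), where 0.565% of names were called in either direction. That call rested on the library of rat 10, a female, and the difference was −0.51 without the rat.

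The names whose tissue patterns were most like those of the members were found by Pearson's r of log2 mean CPM over the 23 labels, among 770 names. These labels share rats and, in the brain, cell types, so r is a description. For miR-204-5p they were miR-99b-3p (0.900), miR-598-3p (0.894), miR-338-3p (0.887), miR-24-1-5p (0.886) and miR-138-5p (0.884). For miR-204-3p they were miR-338-5p (0.918), miR-6325 (0.904) and miR-338-3p (0.894). The last is on the oligodendrocyte list, but it was also at 7060 to 7219 CPM in dorsal root ganglion. There miR-219a-5p of that list was at 2.12 to 4.77 CPM. For miR-211-5p they were miR-7093-3p (0.881), miR-9b-5p (0.817) and let-7a-2-3p (0.789). The label means of miR-7093-3p and miR-9b-5p were at most 1.72 and 1.79 CPM, so their patterns rest on few reads. The order of the names for miR-211-5p rested on the cerebellum library of rat 10. Without it the first 3 for miR-211-5p were miR-100-3p (0.832), miR-760-5p (0.815) and miR-296-5p (0.798), miR-7093-3p was at 0.780, and 2 of the 5 names were shared with the 5 found with it. miR-204-5p and miR-204-3p shared miR-338-3p and miR-598-3p among their 5 most similar names, whereas none of the 5 for miR-211-5p was on either list.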

How the data were processed

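Tissues were stored in RNAlater and RNA was extracted with miRNeasy, while dorsal root ganglion RNA was provided by Takeda Pharmaceuticals. TruSeq small RNA libraries were run on a HiSeq 2000. Per the methods and labels, the authors trimmed reads with cutadapt 1.4.1, counted them with the miRDeep2 quantifier against rat miRBase and then mouse, human and worm entries, and gave reads of more than one precursor a composite name. The deposited values are raw counts per miRNA and per isomiR for 458 runs, of which 14 repeats of a run on one lane were set aside. Runs of a library were summed to 215 libraries, and 7 were left out because their profiles matched another tissue (208 used). Pooled ganglion libraries gave 2 pools, so 200 samples were fitted. Trimmed reads of at least 17 bases were kept, so no shorter form is in the counts. The totals per library, 376401 to 17725805 with a median of 4777568, set the precision of low names, and intervals and limits from 3 counts cover counting error only.

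Counts were tested with edgeR 4.0.16 (glmQLFit, upper quartile scaling, filterByExpr) over 1593 names, with Benjamini-Hochberg adjustment over all names in a contrast and a threshold of 0.05. SE is the absolute log2 difference divided by the square root of F. Ratios needed 20 counts and shares 100, and were compared by permutation (100000 resamples, exact under 10 libraries). The smallest p they can give is rounded. Named miRNAs were the family, 8 marker lists and the 5 names most like each member. Scripts were tested on simulated data. DESeq2 1.42.0, other scalings and filters, flow cells, isomiR choices and left-out libraries were alternatives. The miRNAs and lists were chosen with earlier results of these data known, and the lists hold few names. The rat number marks the same animal in all tissues, which pairs the samples. Deviations of a rat's libraries correlated by a median of 0.015 between tissues, against −0.0064 between rats. No 2 rats of a tissue agreed within sampling noise (lowest chi-square per degree of freedom 18.3 over 885 pairs). No genome was used, and positions are those of RefSeq, GRCr8.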

Additional observations from a re-analysis of the deposited data

Results flagged for a closer look

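In groups of 4 to 10 libraries, a library was marked when its gap to the nearest other was too large a share of the group's range by Dixon's test, which chance does in about 1 of 20 groups, and 38 groups were tested. For miR-204-5p these were brainstem of rat 7 at 25458 CPM (others 4922 to 15764), hippocampus of rat 8 at 9214 CPM (others 1796 to 4218), ileum of rat 4 at 145 CPM (others 55.6 to 97.7) and whole blood of rat 8 at 2.97 CPM (others 0.345 to 1.61), the last from 25 counts. For miR-211-5p it was cerebellum of rat 10 at 239 CPM (others 1.60 to 7.25). Brainstem of rat 7 and hippocampus of rat 8 were also the highest libraries of their region for the list of choroid plexus and ciliated miRNAs.

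Among the 7 libraries left out of all comparisons, 4 carried miR-204-5p above the 6 duodenum libraries that were used (88.2 to 187 CPM). They were labelled duodenum of rat 2 (2171 CPM), rat 4 (2254 CPM), rat 7 (1607 CPM) and rat 11 (212 CPM). Their log2 profiles correlated best with the median of cerebrum (r = 0.989), hippocampus (r = 0.996), cerebrum (r = 0.948) and adrenal (r = 0.976), in the same order.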

How the results depend on the processing

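Of 1806 alternative values of 75 results, 553 for single tissues and 1149 for the main comparisons kept direction and side of the threshold. Where a result was a count of labels, a count of similar size was taken as kept. For single tissues 3 were reversed and 16 weaker, with a call lost. For the main comparisons 29 were reversed, 27 weaker and 29 stronger, with a call gained or more labels. Differences are log2 values unless said otherwise, and the cause of each change was not tested unless the alternative itself shows it. Other scalings moved the median of all names by over 0.1 in 19 (TMM), 26 (library totals) and 22 (DESeq2) of 32 contrasts, by −1.84 in whole blood to 1.72 in testis with library totals. With library totals, miR-204-5p became 0.85 for kidney cortex minus medulla, 0.16 for cortex minus kidney, −0.69 for medulla minus kidney, 0.26 for cerebellum minus brainstem (0.50 with TMM) and 0.81 for hippocampus minus cerebrum, and miR-211-5p 1.15 for cerebellum minus cerebrum. In DESeq2, miR-204-5p was 0.64 for cortex minus medulla, −0.65 for medulla minus kidney, 0.85 for hippocampus minus cerebrum, −0.087 for kidney cortex and −0.068 for kidney against the rest, and miR-204-3p was lower in 4 labels.

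The rat as a block (in a fit without dorsal root ganglion) gave −0.73 for miR-204-5p in medulla minus kidney (−0.73 without the block), 1.07 for miR-211-5p in cerebellum minus cerebrum, 1.76 and −0.16 for miR-204-3p in brainstem minus hippocampus and hippocampus minus cerebrum, and −2.19 for the ratio of miR-211-5p to miR-204-5p in cerebellum minus hippocampus. Among the other kidney, brain and ratio comparisons the pairing changed no call.

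miR-204-3p in brainstem minus hippocampus lay at the threshold and passed with TMM (1.80), library totals (1.70), all libraries kept (1.70), the 3 libraries that stood apart left out (1.55), whole blood left out (1.55), dorsal root ganglion left out (1.60) and DESeq2 (1.59). Its brainstem minus cerebrum missed without a filter (1.57) and with all libraries kept (1.57). Its hippocampus minus cerebrum, near 0, was −0.00042 with all runs, −0.13 with all libraries, −0.042 without the male and −0.047 without the female ganglion pool, and its medulla minus kidney −0.040 on the second flow cells.

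Adding the composite reads to miR-211-5p turned it to 0.38, −0.58 and −0.96 in cortex minus medulla, cortex minus kidney and medulla minus kidney, and to 0.73 and 0.64 in brainstem minus hippocampus and minus cerebrum, since 4920 of 5150 composite reads carry the miR-204 base. Dividing reads by base 17 gave −0.076 for cortex minus kidney. On flow cell D1GBMACXX alone and on the second flow cells alone, miR-204-5p in cerebellum minus cerebrum was 3.39 and 3.26. On the former miR-211-5p was lower in 0 labels and −1.33 for brainstem minus cerebrum, and miR-204-3p could not be fitted.

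Without the cerebellum library of rat 10, chosen after seeing the data, miR-211-5p in cerebellum was 0.30, −0.48 and −1.30 against brainstem, hippocampus and cerebrum, and its ratio to miR-204-5p −0.78 and −1.26 against brainstem and kidney cortex. With the most counted isomiRs alone that ratio was −0.85 for kidney cortex minus medulla. The ratio of 3p to 5p passed with a pseudocount of 1 (cerebellum minus cerebrum −0.73, minus kidney cortex −1.18, kidney cortex minus pancreas −1.53) and with the most counted isomiRs (−0.78 for cerebellum minus cerebrum, −1.27 for cortex minus pancreas). The isomiR share was 0.83 points for cerebellum minus hippocampus with all libraries and −13.0 for kidney cortex minus pancreas on the second flow cells.

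With each rat left out in turn, miR-211-5p ranged from 0.40 to 3.58, −0.52 to 2.77 and −1.28 to 1.96 in cerebellum minus brainstem, hippocampus and cerebrum, differed by sex in 0 to 1 labels and was −0.51 to 4.10 between cerebellum of females and males. miR-204-3p ranged from −0.29 to 0.67 (medulla minus kidney), 1.35 to 1.87 (brainstem minus hippocampus), 1.44 to 1.82 (brainstem minus cerebrum) and −0.33 to 0.22 (hippocampus minus cerebrum). The ratio of miR-211-5p to miR-204-5p ranged from −0.62 to −0.022 (cerebellum minus brainstem), −1.29 to −0.55 (minus kidney cortex) and −1.10 to −0.65 (kidney cortex minus medulla). The ratio of 3p to 5p ranged from −0.82 to −0.52 (cerebellum minus cerebrum), −0.40 to 0.021 (minus hippocampus) and −0.35 to 0.10 (kidney cortex minus medulla). The isomiR share ranged from −0.47 to 3.07 (cerebellum minus cerebrum), −1.78 to 2.69 (minus brainstem), −0.50 to 2.52 (minus kidney cortex) and −16.6 to −12.9 points (kidney cortex minus pancreas).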
